A study of Schizosaccharomyces japonicus with 2 samples.

Results

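The first 37000 bases of supercontig 3 of Schizosaccharomyces japonicus, a fission yeast, carried a tandem array of small RNA reads on 1 strand, described here within its repeating unit. A position was counted as belonging to the array when its start, counted from 0, lay below base 37000 of supercontig 3 and its span was 21 to 28 nt, a position being a distinct start, end and strand. By this rule 57138 of the 595816 positions mapped in the series belonged to the array, 45310 of 223978 in replicate 1 and 37243 of 475551 in replicate 2. The study made 2 small RNA libraries from the wild-type strain yFS275 in logarithmic growth, with no treatment and no other group, and aimed to isolate and describe small RNAs. Both libraries took up RNA of 10 to 40 nt from 40 µg of total RNA and needed a monophosphate at the 5′ end and a hydroxyl at the 3′ end. The array had been picked out from these same reads for its density, its single strand and its repeat, so those properties are described and not tested.

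In fission yeasts, Dicer cuts double-stranded RNA into small interfering RNA that Argonaute carries, and in Schizosaccharomyces pombe this pathway silences centromeric repeats, giving small RNA from both strands. Libraries selected by size and end chemistry take up any RNA with those features, whatever nuclease made it. Tandem repeats read from 1 strand are known above all from ribosomal RNA genes, where a long precursor holds the small-subunit RNA, a short RNA and the large-subunit RNA in that order, with spacers that are removed during maturation. RefSeq's gene table for another assembly of this strain, SJ5, lists 15 rRNA genes among 5224 genes, and 8 of the 15 have consecutive locus tags and are alternately longer and shorter. Whether these are the copies of the array was not tested. No position was carried over from that assembly. What the array encodes was not analysed here, and no stretch of it is given a gene name.

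The array held 2191715 reads in replicate 1 and 1028304 in replicate 2, which is 71.0% and 29.4% of each library, so most of replicate 1 and the smaller part of replicate 2 came from it. Those reads came from 122220 and 77356 listed sequences. A position had a median of 4 reads in replicate 1 and 3 in replicate 2, with a maximum of 55624 and 21185. Of the positions, 25415 were seen in both libraries, which is 56.1% of those of replicate 1 and 68.2% of those of replicate 2. These shared positions held 90.1% and 94.1% of the array's reads. At these depths a share of the array's reads has a 95% Clopper-Pearson interval of at most 0.0662 percentage points to either side in replicate 1 and 0.0967 in replicate 2. Such intervals, and every other interval given here, cover counting error only, since the reads carry no molecular identifiers.

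The limits of the rule fell where reads were scarce, except at 21 nt. The last 1000 start positions inside the limit held 88 and 669 reads, the next 1000 outside held 0 in each library, and the nearest read beyond lay at base 43587 in replicate 1 and 43588 in replicate 2. At the lower limit of span, 518865 and 263241 reads of 21 nt stood against 126 and 80 of 20 nt. At the upper side, 991 and 319 reads had 26 nt, 174 and 95 had 27 nt and none had 28 nt. Numbers fell steeply there too, since 25 nt made up 14.5% and 13.0% of the array's reads and all longer spans 0.0532% and 0.0403%. Among the other mapped reads of 21 to 28 nt, spans over 25 nt made up 0.185% and 0.160%. On the plus strand lay 25 reads of replicate 1, or 0.00114% (95% Clopper-Pearson interval 0.000738 to 0.00168), and 172 of replicate 2, or 0.0167% (0.0143 to 0.0194). Nearly all members were therefore minus-strand reads, and positions within the unit are counted along that strand, in the 5′ to 3′ direction of the RNA.

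The array held 4 copies of the unit, which were not equally spaced. Density of 5′ ends matched itself best at a distance of 8499 nt (r = 0.66 across bases, both libraries joined). Copies were divided at the longest stretches without reads, of 526, 336, 674 and 942 nt, so that copy 1 ended at base 8618, copy 2 at 17646, copy 3 at 25820 and copy 4 at 33957. Between unit positions 1778 and 7578, matching positions of copies 1 and 2 lay 8488 to 8524 nt apart and those of copies 2 and 3 lay 8489 to 8520 nt apart. Copies 3 and 4 were closer, with 8126 to 8280 nt between matching positions and a median of 8186 nt. Over all matched windows, of which 77 of 368 lay outside that range, the distances ran from 8472 to 8524 nt, from 8443 to 8520 nt and from 8126 to 8300 nt. The distance of 8499 nt thus describes the first 3 copies, and the fourth lay nearer than that.

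**Figure D1:**
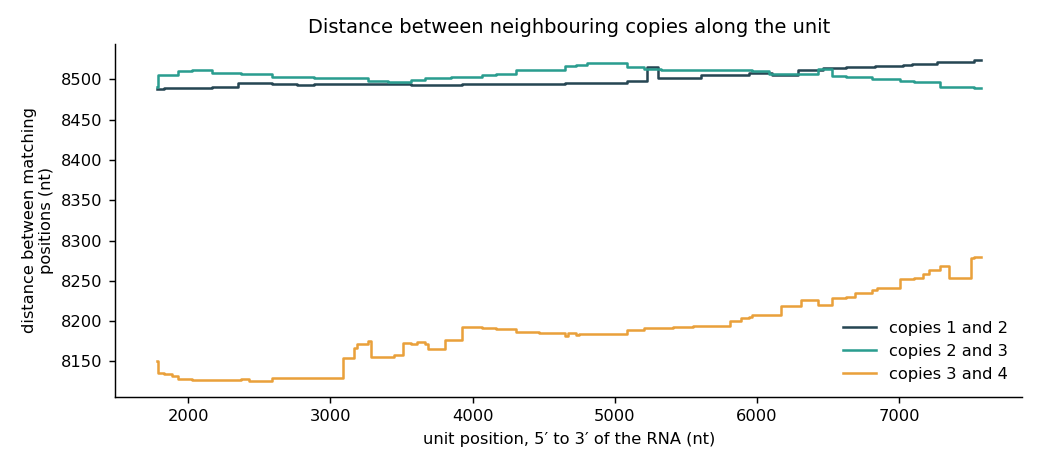
Distance in nt between matching positions of neighbouring copies (vertical axis, not starting at 0) against the position in the unit in nt (horizontal axis, 1778 to 7578), 1 line for each pair of copies, both libraries joined. Copies 3 and 4 lie 8126 to 8280 nt apart and stay below the other pairs, which lie between 8488 and 8524 nt, and the distances change in steps of at most 25 nt between windows 20 nt apart.

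To follow these changes of distance along the unit, each copy was matched to copy 2 in overlapping windows by its pattern of 5′ and 3′ ends. As a check, a matching was made on each library alone and read in the other. With the shifts of replicate 1, the 5′ ends of replicate 2 in copies 1, 3 and 4 correlated with those of copy 2, base by base, at r = 0.65, 0.58 and 0.52 across bases, against 0.34, 0.32 and 0.19 at a constant distance. With the shifts of replicate 2, those of replicate 1 correlated at r = 0.71, 0.63 and 0.57, against 0.38, 0.36 and 0.23. All 6 values were higher with local shifts. The constant distance was the period of 8499 nt from copy to copy. Copies 3 and 4 lay a median of 8186 nt apart, so copy 4 was read out of register at that distance. Matching positions of copies 1 and 3 lay 8488 to 8524 nt and 8489 to 8520 nt from copy 2. A base-by-base r is low at a wrong distance, so the gain shows only that 8499 nt was not the matching distance throughout. Bases of one library are not independent, and both libraries were aligned to the same supercontig, so no p is given.

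Folded on the matching made from both libraries joined, the unit had 3 dense stretches, set apart by spacers with few reads. Bases covered by at least 0.01% of the unit's reads in each library were joined, a limit chosen after the profile was seen. The first stretch ran from unit position 1651 to 3500 (1850 nt), the second from 3684 to 3853 (170 nt) and the third from 4109 to 7575 (3467 nt). Position 1 is the first base after the longest part of the unit without a read, 340 nt. The inner limits at 3500 and 4109 moved by at most 1 nt with coverage limits from 0.005% to 0.05%, and the limit at 3684 by 3 nt. The outer start moved from 1604 to 1685 and the outer end from 7575 to 7507, and the end of the second stretch moved from 3952 to 3852.

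**Figure D2:**
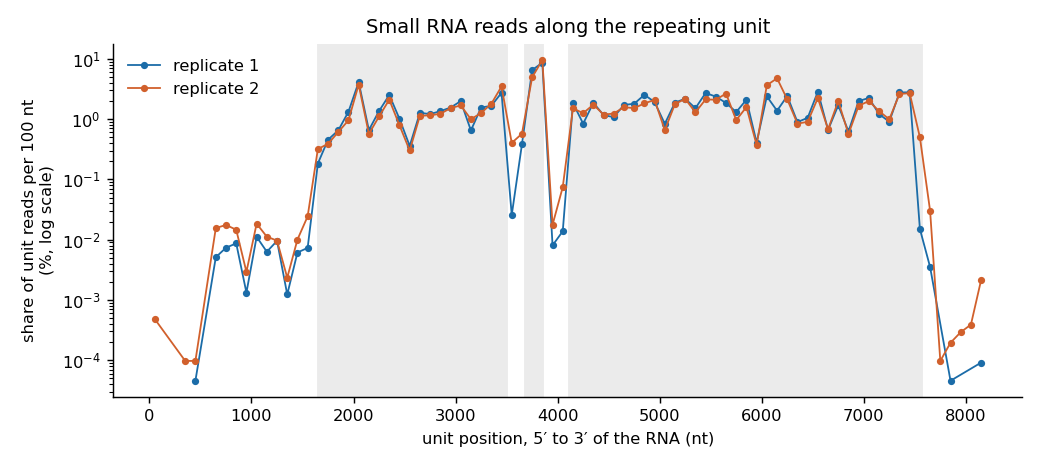
Share of the unit's reads in each 100 nt (vertical axis, percent, log scale) against unit position in nt, 5′ to 3′ of the RNA, with 1 line for each library and the 3 dense stretches shaded; bins without a read are not drawn. Both libraries are highest at 3801 to 3900. They stand apart at 6101 to 6200, with 1.38% in replicate 1 and 4.75% in replicate 2, in the spacer after position 3500 and in the shoulder after position 7500.

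The third stretch held most reads, and the second was the densest. In replicate 1 the first, the second and the third stretch held 26.6%, 15.5% and 57.8% of the unit's reads, and in replicate 2 they held 25.1%, 14.7% and 59.1%. Per base of its length, the second stretch had 1993 reads in replicate 1, against 315 in the first and 365 in the third. The same densities in replicate 2 were 890, 139 and 175 reads per base. Coverage was nearly gapless, which the definition of the stretches by coverage largely fixed. With the copies folded together, reads covered 100% of the bases of the first and second stretch in each library. In the third they covered 99.6% and 99.5%. Coverage was uneven all the same. In the first stretch the quartiles of coverage were 1458 and 9505 reads in replicate 1, with a maximum of 59874, and 677 and 4204 reads in replicate 2, with a maximum of 25408. In the third stretch they were 2610 and 11840 reads with a maximum of 36650, and 1165 and 5634 reads with a maximum of 41280.

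Reads were spread over much of the unit. Of the 85 bins of 100 nt, 50% of all reads fell in 16 (replicate 1) and 15 (replicate 2), or 15.5 ± 0.707 (SD, n = 2). The 4249 nt from unit position 3214 in replicate 1 and from 3215 in replicate 2, which is 1 part in 2 of the unit, held 79.5% ± 1.01 (SD, n = 2) of the reads. Across the 85 bins the libraries' shares on a log2 scale, with 0.01% added, had r = 0.98 and rho = 0.97. Over the 56 bins with at least 1000 reads in each library, which held 99.9% and 98.8% of the unit's reads, both r and rho were 0.93. Bins are neighbours on one RNA strand and are no replicates.

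The 10 bins with the highest mean share formed 7 peaks. The highest, at unit positions 3701 to 3900, held 331235 reads of replicate 1 and 148624 of replicate 2, or 15.1% and 14.5%. Positions 7301 to 7500, at the end of the third stretch, held 5.55% and 5.30%, and positions 2001 to 2100 held 4.12% and 3.74%. The peak at 6001 to 6200 differed between the libraries, with 3.76% in replicate 1 and 8.40% in replicate 2. Its bin at 6101 to 6200 held 1.38% in replicate 1. That was under that library's median of 1.56% over the 56 bins with at least 1000 reads in each library. Positions 3401 to 3500, the end of the first stretch, held 2.73% and 3.48%. The remaining peaks, at 5401 to 5500 and 6501 to 6600, held 2.71% and 2.85% in replicate 1 and 2.12% and 2.24% in replicate 2. Peaks thus stood at or near the 3′ ends of the first and the third stretch, and others stood inside these 2. The highest peak covered most of the short second stretch, so bins of this width do not place it at either end.

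Valleys were runs of bins under 0.1% of the reads in each library. The longest, at unit positions 1 to 1600, held 1405 reads in replicate 1 and 1307 in replicate 2, or 0.0642% and 0.127%. Its first 600 nt held 1 and 7 reads. The 1050 nt from there to the first stretch, a faint leader, carried 1.63 and 1.73 reads per base. The valley at 3901 to 4100 held 478 and 947 reads, or 0.0218% and 0.0923%. The one at 7601 to 8499 held 80 and 341 reads, or 0.00365% (95% Clopper-Pearson interval 0.00290 to 0.00455) and 0.0332% (0.0298 to 0.0369). All 3 valleys held a larger share of the reads in replicate 2.

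The spacers, and the end of the third stretch, held different shares in the libraries. The first spacer, from 3501 to 3683, held 1261 reads of replicate 1 (0.0576%) and 7239 of replicate 2 (0.705%), a share 12.2 times as high. In the second spacer, from 3854 to 4108, 741 reads or 0.0338% stood against 1149 reads or 0.112%, a ratio of 3.31. The last 68 nt of the third stretch, from 7508 to 7575, formed a shoulder with 243 reads in replicate 1 and 4943 in replicate 2, whose shares of 0.0111% and 0.482% differed 43.4 times. Nearly all shoulder reads ended at the same base, since 91.4% and 96.7% had their 3′ end at unit position 7575. The leader had shares of 0.0783% and 0.177%, a ratio of 2.26. Positions 3501 to 3683 and 7508 to 7575 lie next to the 3′ ends of stretches and were named after their values were seen.

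The 56 bins with at least 1000 reads in each library leave out by that rule any bin that was low in either, such as 7501 to 7600 with 329 and 5112 reads, a ratio of shares of 33.1. Of the 56 bins, 51 had shares within 1.5 times of each other, 5 were over 1.5 times higher in replicate 2 and none was as much lower. The median ratio of shares, replicate 2 over replicate 1, was 0.908, with quartiles of 0.840 and 1.08. Positions 6101 to 6200 had the highest ratio, 3.45, with 30151 reads of replicate 1 (1.38%) and 48781 of replicate 2 (4.75%). Most of the difference of the peak at 6001 to 6200 sat in 50 nt across the border between its bins, chosen after the values were seen, which held 0.969% and 5.24%. The next highest ratios were 1.74 at 1601 to 1700, 1.53 at 3101 to 3200, 1.53 at 6001 to 6100 and 1.503 at 3601 to 3700. The lowest were 0.721 at 4801 to 4900, 0.722 at 1901 to 2000, 0.734 at 5701 to 5800, 0.756 at 5801 to 5900 and 0.756 at 3701 to 3800. With 1 library behind each value, none of these differences has a replicate check, and the share of the array in the whole library, 71.0% and 29.4%, differed between the same libraries.

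The 3′ end used most stood near the end of the second stretch. At unit position 3845 lay the 3′ ends of 175008 reads of replicate 1, or 7.99% of the unit's reads, and 88534 reads of replicate 2, or 8.63%. Of these, 96.7% and 96.5% were listed at base 13634, in copy 2. None of the reads at this end had a mapping score above 0, which marks a sequence with a best place. The listing therefore does not tell which copy they came from. The end was sharp, for it held 93.9% and 91.3% of all 3′ ends within 5 nt. The 5′ ends of the same family were staggered by single bases. Unit positions 3821, 3822, 3823 and 3824 held the 5′ ends of 34036, 51769, 57818 and 20514 reads in replicate 1 and of 19256, 24462, 22177 and 15101 reads in replicate 2. At those positions 90.6%, 95.3%, 99.2% and 99.2% of the reads of replicate 1 had 25, 24, 23 and 22 nt, in that order. In replicate 2 these shares were 86.8%, 89.8%, 99.0% and 99.1%. Each group thus started at its own base and mostly stopped at the same one. Reads that stop at the same base start at a distance set by their span. The width of the stagger and its order of spans therefore follow from the range of spans in the array, while the single shared 3′ end does not.

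**Figure D3:**
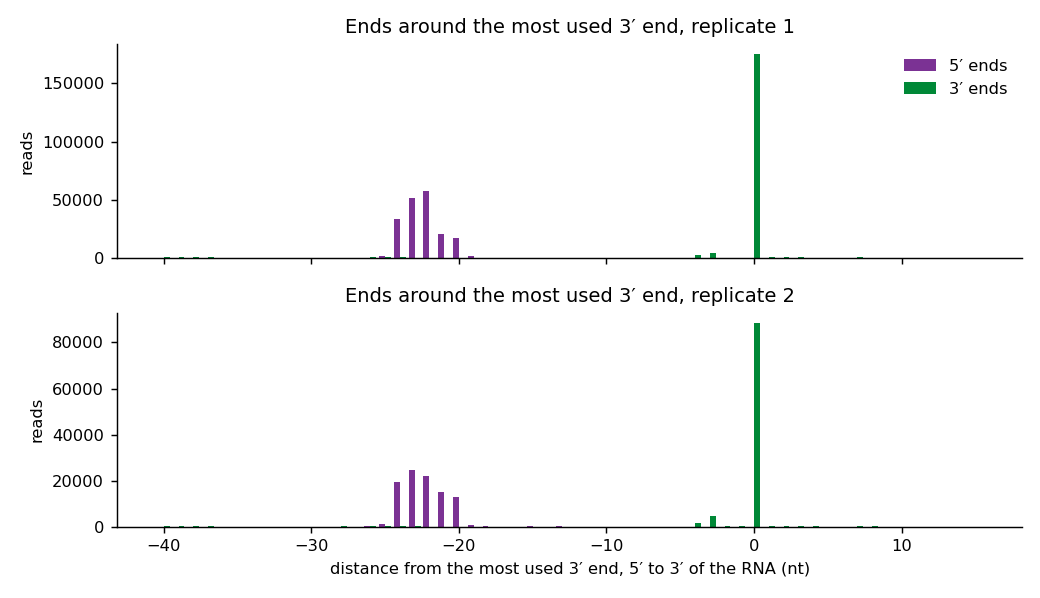
Reads (vertical axis) whose 5′ end or 3′ end lies at each distance in nt from unit position 3845, the 3′ end used most, with 1 panel for each library. The 3′ ends stand in 1 bar of 175008 and 88534 reads at distance 0, while the 5′ ends spread over bases 20 to 24 upstream. The width of this spread follows from the range of spans of reads that stop at the same base.

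These 4 staggered bases were also 4 of the 5 most used 5′ ends of the unit. The other was unit position 2004, in the first stretch, with 25053 and 13300 reads, or 1.14% and 1.30%, of which 82.7% and 79.1% had 21 nt. It began the family of the 3′ end that was second by mean share, unit position 2024, with 41367 reads or 1.89% and 17478 reads or 1.70%. That family had mostly 21 nt (50.1% and 60.2%) and 25 nt (29.7% and 21.0%). The 3′ end at unit position 3500, the last base of the first stretch, had 29268 reads or 1.34% and 17967 reads or 1.75%. It held 98.1% and 95.6% of the 3′ ends within 5 nt, and 78.7% and 72.1% of its reads had 24 nt. The last of the 5 most used 3′ ends, at 3744 and 6541, held 1.46% and 1.12% in replicate 1 and 1.09% and 0.771% in replicate 2. Both had 23 nt as their most frequent span in each library, with 40.4% and 46.7% in replicate 1 and 37.4% and 45.2% in replicate 2.

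Ends at the edges of the stretches were sharp in some places and not in others. Unit position 4110, the second base of the third stretch, held the 5′ ends of 16869 and 5798 reads, which is 52.5% and 45.5% of the 5′ ends in the 51 nt around that edge. Around the start of the first stretch, 1651, the most used 5′ end, 1654, held 32.8% and 29.6%, from 173 and 321 reads. Around its start taken at 0.05% coverage, unit position 1685 held 75.1% and 81.8% of the 5′ ends, from 2847 and 1709 reads. Around the start of the second stretch no base led, as the most used, 3711, held 13.1% and 14.2%. At 7507, the end of the third stretch at 0.05% coverage, 6886 and 3927 reads stopped, which is 25.1% and 27.9% of the 3′ ends in that window.

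Over the whole unit, 3′ ends were used more unevenly than 5′ ends. The 10 most used 3′ ends held 16.8% ± 0.640 (SD, n = 2) of the reads and the 10 most used 5′ ends 13.6% ± 0.720. As an effective number (the inverse of the sum of squared shares), taken over listed bases, the array had 140 3′ ends against 413 5′ ends in replicate 1, and 124 against 400 in replicate 2. Much of this rests on 1 base. Without the reads that end at base 13634 the effective numbers were 714 and 913 in replicate 1 and 737 and 840 in replicate 2. Among all other mapped reads of 21 to 28 nt the numbers for 3′ and 5′ ends were nearly equal, 275 and 289 in replicate 1 and 2253 and 2291 in replicate 2.

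Span varied along the unit in a way that both libraries shared. The array had 24.6% ± 1.36 (SD, n = 2) of its reads at 21 nt and 21.7% ± 0.393 at 23 nt. Among the 56 well-read bins, 21 nt was the most frequent span in 35 of replicate 1 and 36 of replicate 2, and 23 nt in 7 and 8. The share of 21 nt ran from 10.8% to 50% over bins in replicate 1 and from 13.2% to 49.1% in replicate 2. Between the libraries the bins' shares had r = 0.87 and rho = 0.72 at 21 nt, r = 0.94 and rho = 0.91 at 22 nt, r = 0.83 and rho = 0.81 at 23 nt, r = 0.94 and rho = 0.84 at 24 nt and r = 0.93 and rho = 0.82 at 25 nt. The labels give a size of 21 to 28 nt, so spans are described from that lower limit up.

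**Figure D4:**
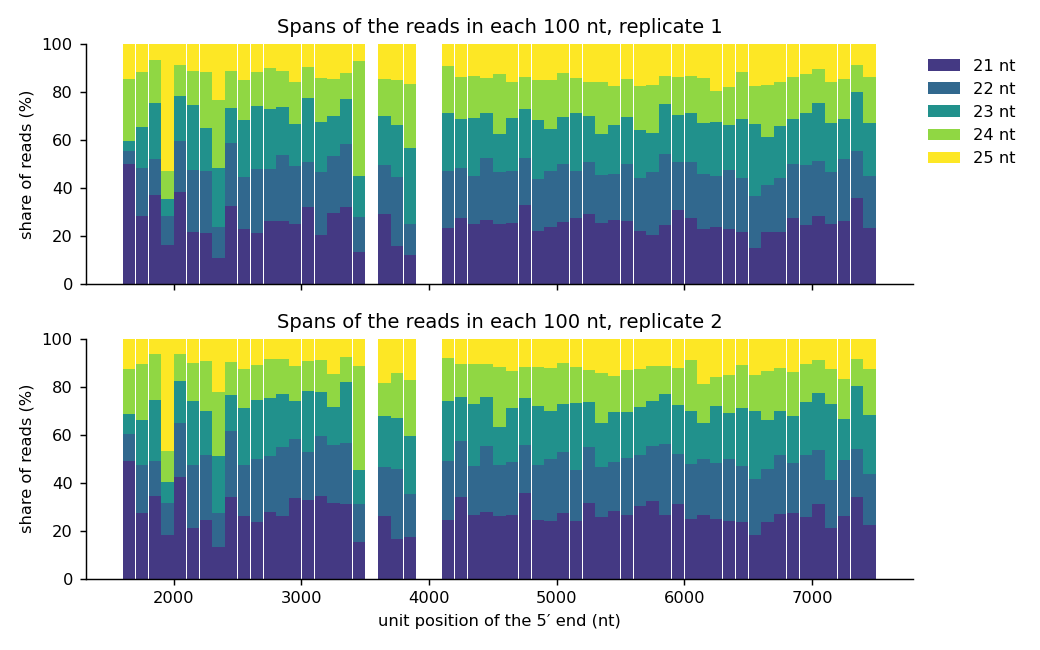
Share of reads of 21 to 25 nt (stacked bars, percent) in each 100 nt of the unit with at least 1000 reads in each library, by unit position of the 5′ end in nt, 1 panel for each library. The pattern along the unit is alike in both panels, with 24 nt filling 47.9% and 43.1% of the reads at 3401 to 3500 and 25 nt leading next to position 2000.

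Of the 5 bins richest in 21 nt, 3 lay at the start of the first stretch or inside it. Positions 1601 to 1700 had 50% and 49.1% of their reads at 21 nt, positions 2001 to 2100 had 38.4% and 42.2%, and positions 1801 to 1900 had 36.96% and 34.5%. At 7301 to 7400 these shares were 36.0% and 34.2%, and at 4701 to 4800 they were 33.0% and 35.5%. The poorest were 2301 to 2400 with 10.8% and 13.2%, 3401 to 3500 with 13.6% and 15.4%, 3801 to 3900 with 12.1% and 17.4%, 3701 to 3800 with 16.1% and 16.5%, and 6501 to 6600 with 15.2% and 18.2%. Bins poor in 21 nt led with other spans: 24 nt at 2301 to 2400 (28.4% and 26.7%) and at 3401 to 3500 (47.9% and 43.1%), and 23 nt at 6501 to 6600 (30.2% and 28.5%). In replicate 1 the 3′ end at unit position 3500 alone gave 29268 of the 59837 reads at 3401 to 3500.

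The second stretch had its own mix of spans, while the first and the third were close at 21 nt. The second had 14.2% and 17.4% of its reads at 21 nt, against 25.8% and 28.1% in the first and 25.3% and 26.8% in the third. At 23 nt it had 27.2% and 22.96%, the first 19.7% and 19.3%, and the third 21.5% and 21.8%. The 3′ end at unit position 3845 alone had 175008 reads in replicate 1 and 88534 in replicate 2. The second stretch had 338731 and 151233, so its mix largely reflects that end. Outside the stretches, reads of the first spacer were most often 23 nt long, at 26.9% in replicate 1 and 32.7% in replicate 2. Shoulder reads had 54.3% at 21 nt in replicate 1, from 243 reads, and 43.4% at 23 nt in replicate 2, from 4943 reads, so the libraries differed there in span as well as in number.

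As listed, the copies had alike coarse profiles and unequal numbers of sequences. Replicate 1 had 634035 reads in copy 1, 741589 in copy 2, 447526 in copy 3 and 366256 in copy 4, and replicate 2 had 261797, 360180, 235442 and 169029. Each sequence is listed at a single place, so a copy's number reflects where the aligner put a sequence as well as what was there. Across the 85 bins, the 6 pairs of copies had r from 0.85 to 0.96 in replicate 1 and from 0.82 to 0.96 in replicate 2, on log2(reads + 1). The median over pairs was 0.91 ± 0.016 (SD, n = 2). Copies had been matched by their pattern of ends, and most reads had several places, so this likeness does not show what each copy gave. With only reads of a score above 0, which have a best place and came from few bins, the median was 0.24. Likeness was lower inside the stretches. Over the 56 well-read bins, r was 0.57 in each library for copies 1 and 2, and between −0.0028 and 0.17 for copy 4 against the others.

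**Figure D5:**
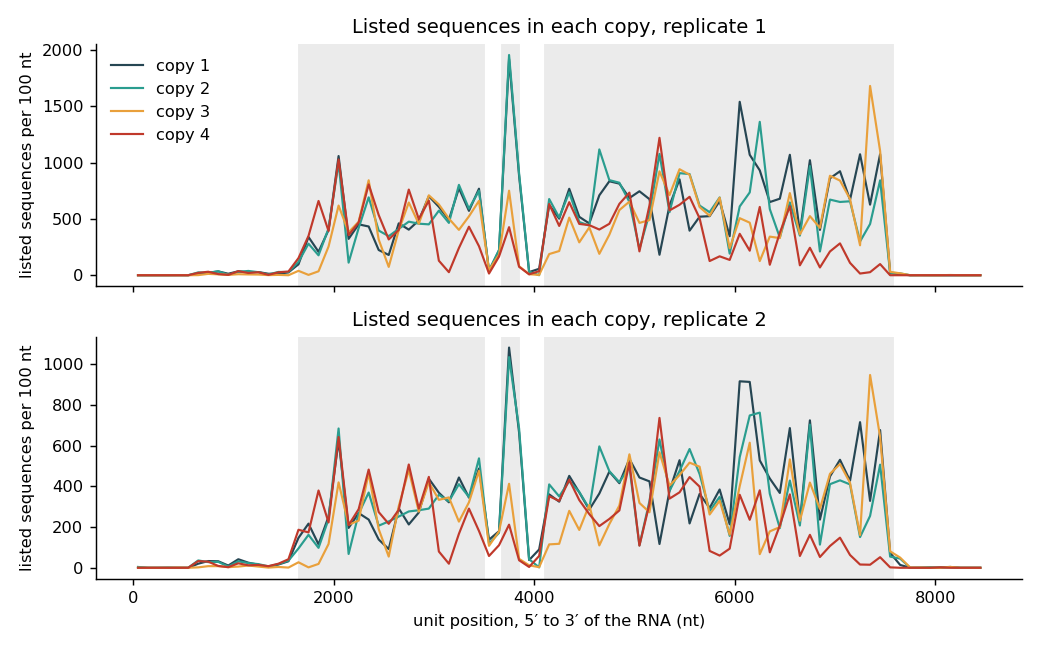
Number of listed sequences in each 100 nt (vertical axis) against unit position in nt, 1 line for each of the 4 copies and 1 panel for each library, with the dense stretches shaded. At 3701 to 3800 copies 1 and 2 reach 1921 and 1957 sequences in replicate 1, where copies 3 and 4 have 751 and 427, and copy 4 lies lowest towards the end of the third stretch.

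Sequences were listed in even numbers over the copies in part of the unit only. In 12 of the 56 bins of replicate 1 and 10 of replicate 2, all 4 copies had numbers of sequences within 1.5 times of each other. Copies 1 and 2 were within 1.5 times in 41 and 42 bins. Copy 4 had under 50% of the mean of copies 1 and 2 in 22 bins of each library, and copy 3 in 13 and 14. In the first stretch the totals of the copies were close, with 8961, 8923, 7953 and 8425 sequences in replicate 1 and 5426, 5487, 4915 and 5259 in replicate 2. Single bins of that stretch were uneven all the same, such as 1701 to 1800 with 340, 280, 3 and 349 sequences and 3101 to 3200 with 493, 465, 503 and 27 in replicate 1. The second stretch split the copies, with 2980, 2990, 978 and 629 sequences in replicate 1 and 1821, 1739, 535 and 306 in replicate 2. In the third stretch numbers fell from copy 1 to copy 4, from 24428 over 21960 and 19182 to 13156 in replicate 1 and from 15180 over 13869 and 12121 to 8199 in replicate 2.

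Reads of 1 unit position were mostly 1 sequence at 1 copy. A unit position of 5′ end and span with at least 100 reads, of which there were 3803 in replicate 1 and 1939 in replicate 2, had a median of 94.9% and 95.1% of its reads at its leading copy, and 92.3% and 92.2% in a single listed sequence. It had a median of 14 and 12 listed sequences, and 1459 and 670 of these positions were listed in all 4 copies. Of the 1658 positions with 100 reads in both libraries, 612 or 36.9% had the same leading copy in both, where the copies' shares alone would give 26.1%. So the leading copy of a unit position with many reads was often not the same in the 2 libraries. Whether the same sequence stood at different copies was not measured. Read numbers of single copies are less certain than those of the folded unit.

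Reads with a score of 0 made up 96.3% ± 0.0969 (SD, n = 2) of the array. A score above 0 marks a sequence with a best place, and such reads numbered 79966 in replicate 1 and 38928 in replicate 2. They stood at few parts of the unit. In 42 of the 56 well-read bins they were under 1% in each library, and in 5 bins over 10%. Those at 1801 to 1900 made up 62.5% and 64.5% of the bin, those at 7201 to 7300 52.2% and 63.9%, those at 7301 to 7400 37.8% and 40.99%, those at 5001 to 5100 21.2% and 18.6%, and those at 6001 to 6100 24.9% and 13.6%. These 5 bins held 73.8% and 72.6% of all unit reads with a score above 0.

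In each such bin a single copy held nearly all the reads with a score above 0. At 1801 to 1900 copy 4 had 8820 of them in replicate 1 and 4009 in replicate 2, and copy 3 had 72 and 26. At 7201 to 7300 copy 1 had 10313 and 6497, against at most 29 in any other copy. At 7301 to 7400 copy 3 had 22666 and 10903, and copy 1 had 178 and 61. Positions 5001 to 5100 and 6001 to 6100 again had them in copy 1, with 3822 and 12939 reads in replicate 1 and 1242 and 4980 in replicate 2. Over the whole unit, copy 1 held 50.4% and 51.5% of the reads with a score above 0 and copy 2 only 6.04% and 5.79%, while of reads with a score of 0 copy 2 held 34.9% and 36.2%. Reads with a score above 0 had 23 nt as their most frequent span, at 27.5% and 28.0%, against 21.8% and 21.2% among those with a score of 0. Since they came from few bins, the spans of the score classes also compare different places.

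A few members lay outside the 4 copies or on the other strand. Past copy 4 stood 2284 and 1684 reads in separate groups. The first, from base 34889 to 35117 in replicate 1 and from 34429 to 35119 in replicate 2, had 2197 and 1020 reads, of which 99.9% and 99.1% had a score of 0. The last began at base 36200 and had 87 and 664 reads, of which 82.8% and 81.9% had a score above 0. The plus-strand reads came from 25 and 157 sequences with at most 1 and 4 reads. Of these sequences 72.0% and 73.2% fell in the dense stretches, which make up 64.6% of the unit, and 23 nt was their most frequent span, with 10 of 25 and 46 of 157.

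Against all other mapped reads of 21 to 28 nt, the array differed in depth per position and in score. It had 48.4 reads per position in replicate 1 and 27.6 in replicate 2, against 4.99 and 5.62 elsewhere, and 2.70 and 2.08 listed sequences per position against 1.23 and 1.37. Its share of reads with a score of 0 stood against 72.9% and 70.1% elsewhere. At 25 nt it had 14.5% and 13.0%, against 10.2% and 9.73%. At 23 nt it had less in each library, 21.96% and 21.4% against 25.8% and 34.3%. At 21 nt the difference depended on the library, with 23.7% in the array and 23.1% elsewhere in replicate 1, but 25.6% and 13.3% in replicate 2. With 2 libraries an exact permutation test of paired values, two-sided, cannot go below 0.5, so these values are set side by side without a test. Density and repeat were part of how the array was chosen, and a score of 0 was read as several equally good places. The differences in depth and in score are thus tied to that choice.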

How the data were processed

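Small RNA of 2 libraries of 1 group was analysed. The deposited files list distinct sequences with supercontig, start, end, a name and a mapping score, and BWA was among the tools, per the submitters' processing notes; the version and settings, like the build of the genome, are not given there. The number after the hyphen in the deposited name, which never rises with rank, was read as a raw number of reads, with no normalization by the authors. The deposited score runs from 0 to 37, and 0 was read as a sequence with several equally good places, listed at 1 of them. Coordinates count from 1. Nothing in the labels says that the libraries came from separate cultures, so their spread may be technical.

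The period was the distance, from 3000 to 12000 nt, of highest self-correlation of log2(1 + listed sequences) at 5′ ends, smoothed over 20 nt. Copies were divided at the longest stretch without reads within 1200 nt of each multiple. Copies were matched to copy 2 in windows of 500 nt, moved by 100 nt, with a penalty on changes of distance, then in windows of 160 nt, moved by 20 nt, a step added after the data were seen. The matching was tried on simulated copies whose single changes of distance were smaller than the largest found here, so that trial does not cover those. Reads were assigned by their 5′ end. Peaks were the 10 bins of 100 nt with the highest mean share, valleys runs of 200 nt or more under 0.1%, named ends the 5 most used, and bins named by ratio or span had at least 1000 reads in each library. Members and rules were chosen with earlier results of these data known. Python 3.11.15, numpy 2.4.6, pandas 2.3.3 and scipy 1.17.1 were used. Alternatives were each position counted once, scores above 0 only, a constant period, bins of 50 and 200 nt, matching without the finer windows and each library alone.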

Additional observations from a re-analysis of the deposited data

Results flagged for a closer look

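Reads of 20 nt, 1 base under the smallest labelled size and left out of every value above numbered 126 in replicate 1 and 80 in replicate 2 over the whole array. There was no control library, so no background level can be given for them.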

How the results depend on the processing

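No paired analysis was possible because the study has 1 group. The array rests on sequences with several places, so scores above 0 describe other parts of the unit. With these alone, 3 bins in place of 15.5 held 50% of the reads, the median r between copies was 0.24, the share at 23 nt was 27.7%, the 10 most used 5′ and 3′ ends held 39.9% and 47.6%, and the fullest 4249 nt held 87.5%. With each position counted once, the share at 21 nt was 21.4%, at 23 nt 20.3%, at the 10 most used 5′ and 3′ ends 0.525% and 0.544%, at a score of 0 94.8% and in the fullest 4249 nt 76.0%. So counted, an end can hold only a few spans in each copy, so the shares of ends had to be low and do not test their concentration. At a constant period the median r between copies was 0.90 and the 10 most used 5′ and 3′ ends held 12.4% and 15.0%. Without the finer windows, chosen after seeing the data, the 3′ share was 16.1%. With bins of 50 nt, 26 bins held 50% and the median r was 0.87, and with bins of 200 nt r was 0.94. The r between the libraries, 0.98, was 0.99 with each position counted once, 0.97 with scores above 0, 0.99 at a constant period, 0.98 and 0.99 with bins of 50 and 200 nt, and 0.97 without the finer windows. Without replicate 1 and without replicate 2, in that order, 15 and 16 bins held 50%, the median r was 0.90 and 0.93, and the shares were 25.6% and 23.7% at 21 nt, 21.4% and 21.96% at 23 nt, 14.1% and 13.1% at 5′ ends, 17.3% and 16.4% at 3′ ends, 96.2% and 96.4% at a score of 0 and 80.2% and 78.8% in the fullest 4249 nt. With 2 libraries these values cannot leave the spread. Of the 35 other recomputed values 10 stayed within the spread between the libraries, or within 1.5 times for the number of bins; the r between the libraries has no such spread. Differences of about 100 reads or fewer in the valleys rest on little depth, and matching is least certain there.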
